A study of Mus musculus with 10 samples.

Results

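Glycolysis and hypoxia genes were followed through medulloblastoma cells treated with a CDK7 inhibitor or a SMO inhibitor. They are 37 genes taken by gene symbol, and they encode glucose and lactate transporters, glycolytic enzymes, regulators of the hypoxia-inducible factor (HIF) and genes known to respond to HIF. Of the 37, 33 stood in at least 1 of the 3 deposited count tables and 21 in every table, among 13976 distinct genes. Of them, 24 were among the 10007 genes deposited for THZ1 in SMB56, 29 among the 10008 for GDC-0449 and 32 among the 12057 for THZ1 in SMB56-shSufu. Ndrg1, P4ha2, Pdk1 and Slc16a3 were not analysed here. Aldoa, Arnt, Bnip3, Eno2, Higd1a, Hk1, Hk2 and Tpi1 were not analysed for THZ1 in SMB56, nor Ankrd37 and Pfkm for GDC-0449. Aldoc was analysed for THZ1 in SMB56 alone and Pfkp for THZ1 in SMB56-shSufu alone.

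SMB56 is a line of spontaneous medulloblastoma cells of genotype Ptch+/-, so all groups carry the Ptch mutation. SMB56-shSufu is the same line with a short hairpin RNA against Sufu, a negative regulator of hedgehog signalling that acts below SMO. Cells at passages 10 to 15 were grown as neurospheres. SMB56 received DMSO, 0.1 µM THZ1, a covalent inhibitor of CDK7, or 1 µM GDC-0449 (vismodegib), an inhibitor of SMO, and SMB56-shSufu received DMSO or 0.1 µM THZ1, each for 8 hours. These are 5 groups of 2 RNA-seq libraries, 10 in all, from bulk cells of 1 mouse tumour line, in which fewer cells of a type and less RNA per cell cannot be told apart. Nothing in the labels says whether the 2 libraries of a group are separate cultures. The p-values below rest on the spread between those libraries alone, and it may be technical.

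Glycolysis splits glucose into pyruvate. Transporters of the SLC2A family bring glucose in, hexokinase traps it, phosphofructokinase commits it, and the enzymes from GAPDH to pyruvate kinase recover ATP. Lactate dehydrogenase and the monocarboxylate transporters then dispose of pyruvate as lactate. HIF is a pair of HIF1A or a relative with ARNT. In the presence of oxygen, prolyl hydroxylases of the EGLN family mark the alpha subunit, VHL takes it to degradation, and HIF1AN blunts what remains. HIF binds DNA at short elements with the core ACGTG or GCGTG, and many glycolytic genes are among its targets. Proliferating granule neuron progenitors and hedgehog-driven medulloblastoma are known for aerobic glycolysis, in which hexokinase 2 takes part.

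The core motifs ACGTG and GCGTG were searched on both strands in the RefSeq promoter windows (GRCm38.p6) of 300 bases, from 250 before to 50 after each start. For 34 of the 37 genes, 48 windows matched by symbol. ACGTG stood in 26 of the 48 (54.2%), against 19.6% of 32851 mouse windows. GCGTG stood in 27 (56.3%), against 32.4% of all windows. Several windows of 1 gene overlap, so the 48 are not independent, and a match is a description of these letters. Hif1an and Vhl, on which the results below also turn, held 0 matches to either motif in their windows and are not shown. The 250 bases before the start are shown for some other genes of the results below, all with a match. They are the lactate transporter Slc16a1, hexokinase Hk2, the HIF hydroxylases Egln1 and Egln3, and the HIF-responsive gene Ankrd37. Capitals mark ACGTG and GCGTG on either strand (CACGT and CACGC are the reverse forms), and CACGTG counts on both strands.
Slc16a1, chr3:104638414-104638663, + strand: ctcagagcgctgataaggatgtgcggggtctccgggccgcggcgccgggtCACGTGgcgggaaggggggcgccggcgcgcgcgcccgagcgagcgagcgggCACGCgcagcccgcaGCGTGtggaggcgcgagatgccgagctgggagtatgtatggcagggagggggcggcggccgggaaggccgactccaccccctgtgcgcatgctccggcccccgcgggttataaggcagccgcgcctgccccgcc
Hk2, chr6:82774455-82774704, - strand: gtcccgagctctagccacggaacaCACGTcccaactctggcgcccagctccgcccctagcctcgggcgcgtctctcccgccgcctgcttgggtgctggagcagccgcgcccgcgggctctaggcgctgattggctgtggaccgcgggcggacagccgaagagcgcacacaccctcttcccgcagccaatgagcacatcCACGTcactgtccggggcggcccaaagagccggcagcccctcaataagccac
Egln1, chr8:124949255-124949504, - strand: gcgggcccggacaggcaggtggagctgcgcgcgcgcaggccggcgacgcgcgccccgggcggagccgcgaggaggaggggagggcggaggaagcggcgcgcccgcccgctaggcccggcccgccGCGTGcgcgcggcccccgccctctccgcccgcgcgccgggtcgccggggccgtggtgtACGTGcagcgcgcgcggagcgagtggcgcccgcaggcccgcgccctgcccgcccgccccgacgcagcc
Egln3, chr12:54203875-54204124, - strand: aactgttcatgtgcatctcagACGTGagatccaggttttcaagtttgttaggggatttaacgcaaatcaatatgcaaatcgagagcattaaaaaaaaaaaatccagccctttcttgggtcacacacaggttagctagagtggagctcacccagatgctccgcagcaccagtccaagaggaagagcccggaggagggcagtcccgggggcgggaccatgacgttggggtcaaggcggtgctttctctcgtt
Ankrd37, chr8:45999851-46000100, - strand: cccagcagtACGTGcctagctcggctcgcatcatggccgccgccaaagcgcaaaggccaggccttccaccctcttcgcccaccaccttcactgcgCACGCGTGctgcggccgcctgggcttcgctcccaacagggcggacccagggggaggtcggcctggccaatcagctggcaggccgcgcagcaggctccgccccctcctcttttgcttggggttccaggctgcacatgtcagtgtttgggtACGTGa
In these stretches, Slc16a1 held 2 matches to ACGTG and 2 to GCGTG. Hk2 held 2 to ACGTG and 0 to GCGTG, Egln1 held 1 of each, Egln3 held 1 to ACGTG, and Ankrd37 held 2 of each.

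Over the deposited genes, libraries summed to between 10614268 and 13170421 counts for THZ1 in SMB56 and to between 13131292 and 14986389 for GDC-0449. In SMB56-shSufu they summed to between 30100041 and 33254885. Sufu stood at 23.6 CPM (counts scaled to a common library total with TMM; means of 2 libraries) in SMB56-shSufu against 67.9 in SMB56 under DMSO, a log2 fold change of -1.52 (edgeR adjusted p = 0.0012). With THZ1, in fits other than that of the DMSO values, it stood at 80.7 CPM in SMB56-shSufu and 131 CPM in SMB56. CPM of single genes are scaled within each fit, over its own genes, so CPM of different fits are not to be compared. Gli1, the hedgehog target, changed by -3.76 with GDC-0449. Granule-lineage and hedgehog markers, 8 or 9 of 10 held, summed to 2034 to 3900 CPM. None of 4 microglial and none of 4 endothelial markers were held by the tables, which does not show that they were unexpressed. Of 4 astrocyte markers 1 or 2 were held, at 116.7 to 748.4 CPM. Of 4 oligodendrocyte markers 2 or 3 were held, at 8.54 to 29.8 CPM. Of 4 fibroblast markers 1 was held, in SMB56-shSufu alone, at 13.7 to 22.5 CPM. The share of counts from mitochondrially encoded genes was 3.01% to 3.42% in SMB56 with DMSO and 5.96% and 6.84% with THZ1, and 5.83% and 8.18% in SMB56-shSufu with DMSO and 12.9% in both with THZ1. The part of this share in the THZ1 results was not tested. The spread between replicates, as edgeR's common coefficient of biological variation, was 3.02% in the SMB56 THZ1 fit, 2.27% in the GDC-0449 fit and 13.3% in SMB56-shSufu.

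Levels between genes were compared on the authors' FPKM, which divides by transcript length. In SMB56 with DMSO, Gapdh was highest among the glycolytic genes at 901 and 903 FPKM in the 2 libraries. Pyruvate kinase Pkm followed at 378 and 379.5 FPKM, then aldolase Aldoa at 192 and 195 FPKM. Lactate dehydrogenase Ldha came next at 162 and 155 FPKM, above enolase Eno1 at 94.1 and 96.9 FPKM. The 2 libraries of each of these genes lay closer to each other than to the next gene in the order.

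At the entry of the pathway, levels were far lower. The glucose transporters Slc2a1 and Slc2a3 stood at 6.14 and 6.20 and at 5.05 and 6.37 FPKM, and their order differed between the libraries. Hexokinase 2 stood at 8.93 and 8.84 FPKM and hexokinase 1 at 6.35 and 7.56. Pfkfb3, which makes the activator of phosphofructokinase, was at 2.10 and 1.51 FPKM, and Aldoc and Ankrd37 were near or under 1 FPKM. Among the HIF regulators Hif1a stood at 23.7 and 24.4 FPKM, Vhl at 17.8 and 19.8, Arnt at 15.4 and 13.8 and Egln1 at 13.8 and 14.4. The values of Vhl and of Hif1a did not meet, while those of Arnt and Egln1 did, and Egln3 lay below them all at 3.55 and 3.22 FPKM.

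**Figure D1:**
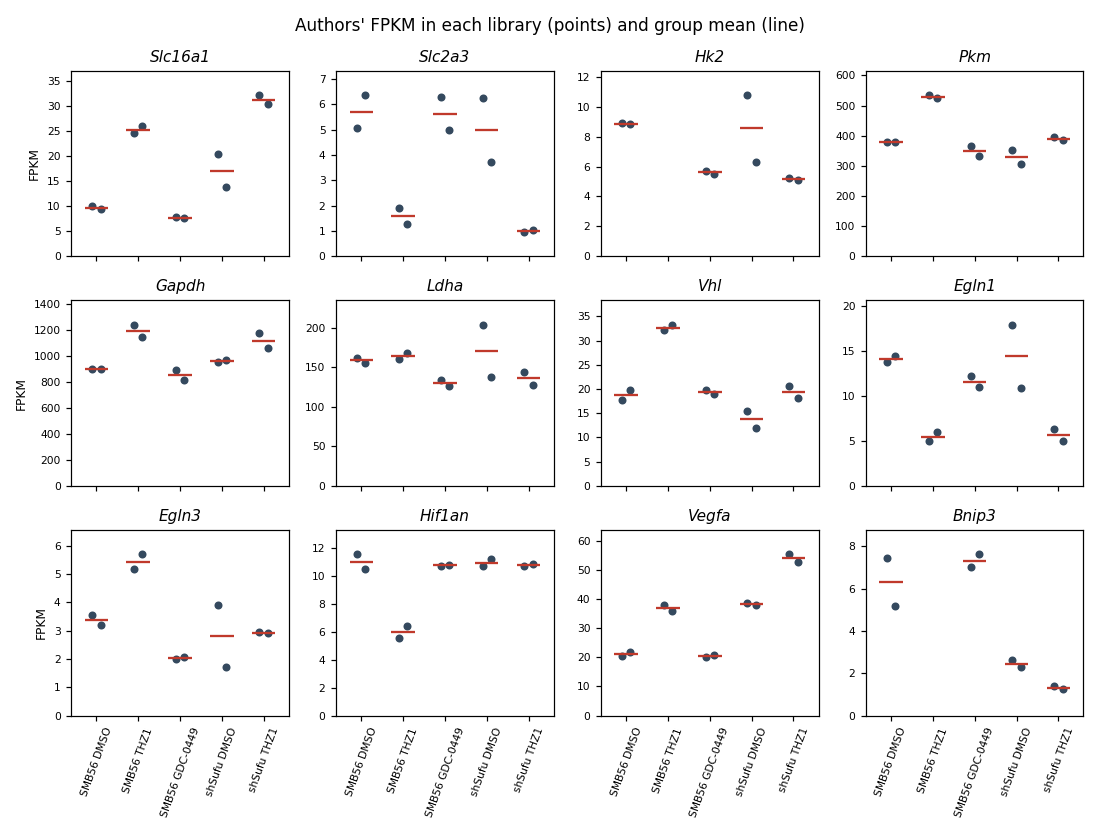
FPKM as deposited by the authors (vertical axes, linear from 0) of 12 genes in each of the 10 libraries (points), with the mean of the 2 libraries of a group (red line). With THZ1 Slc16a1 lies above and Slc2a3 and Egln1 lie below the DMSO libraries of the same line, Hk2 is lower with GDC-0449, and the 2 SMB56-shSufu DMSO libraries lie apart for Slc16a1, Hk2, Ldha, Egln1 and Egln3.

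The first comparison asked which of these genes changed with THZ1, in SMB56 and in the Sufu-knockdown line. In both lines the lactate transporter Slc16a1 rose and the glucose transporter Slc2a3 fell, while the lower glycolytic enzymes moved up relative to the median gene. Egln1 and Pfkfb3 stood below the median gene, and Vegfa, Vhl and Bnip3l above it. In SMB56, the 24 genes tested passed edgeR's quasi-likelihood test at an adjusted p under 0.05, 17 higher and 7 lower. That table was selected on this outcome: the authors' deposited table gives an adjusted p under 0.05 for 9999 of its 10007 genes, and 99.5% of all genes tested were called, 44.3% higher and 55.2% lower. A fold of at least 1.5 was reached by 17 of the 24 genes and by 76.1% of all. The counts and folds for THZ1 in SMB56 are therefore a description, and no p-values of single genes are given for them. In SMB56-shSufu 16 of 32 genes were higher, 3 lower and 13 not called, against 61.9% of all genes called, 29.5% higher and 32.3% lower. A called fold of at least 1.5 was reached by 16 of the 32 and by 50.5% of all genes. The median log2 fold change of the 32 was 0.39, and that of all genes tested -0.04.

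The scale of a THZ1 fold depended on the normalization. With TMM, the median gene of the SMB56 THZ1 table stood at -0.31 and that of the SMB56-shSufu table at -0.04. With scaling to mitochondrially encoded genes, the medians were -1.57 and -1.37, and 3 of 24 genes were called higher and 17 lower in SMB56, against 13.3% and 73.9% of all genes. In SMB56-shSufu 0 of 32 were called higher and 19 lower, against 1.54% and 76.8% of all. With scaling to ribosomal protein genes, 10 were higher and 9 lower in SMB56 (26.9% and 60.8% of all genes), and 11 higher and 3 lower in SMB56-shSufu (19.5% and 33.8% of all). With limma on log2(FPKM + 1), 10 were higher and 9 lower in SMB56 (25.4% and 57.0% of all genes), and 4 higher and 6 lower in SMB56-shSufu (8.62% and 54.9% of all). Across 6 scalings of the counts, 15 of 24 genes in SMB56 and 25 of 32 in SMB56-shSufu changed sign. In SMB56, Slc16a1, Aldoc and Ankrd37 were higher, and Slc2a1, Slc2a3, Pfkm, Pfkfb3, Egln1 and Hif1an lower, under each of the 6. In SMB56-shSufu, Slc16a1 was higher and Slc2a1, Slc2a3, Pfkfb3, Eno2, Egln1 and Bnip3 lower under each. These are signs alone. Under TMM, Slc2a1, Eno2 and Bnip3 were not called in SMB56-shSufu. The fold nearest to no change was -0.0043 for Eno2 there and -0.0073 for Hif1an in SMB56. Folds are therefore given on the TMM scale and, where stated, as the difference from the median gene of the fit. That difference moved by less than 0.10 between scalings for these genes. A scaling shifts all folds of a fit by nearly the same amount, so this small movement is built in and is no check. Under TMM, 18 of 24 genes lay above the median gene in SMB56 and 27 of 32 in SMB56-shSufu.

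**Figure D2:**
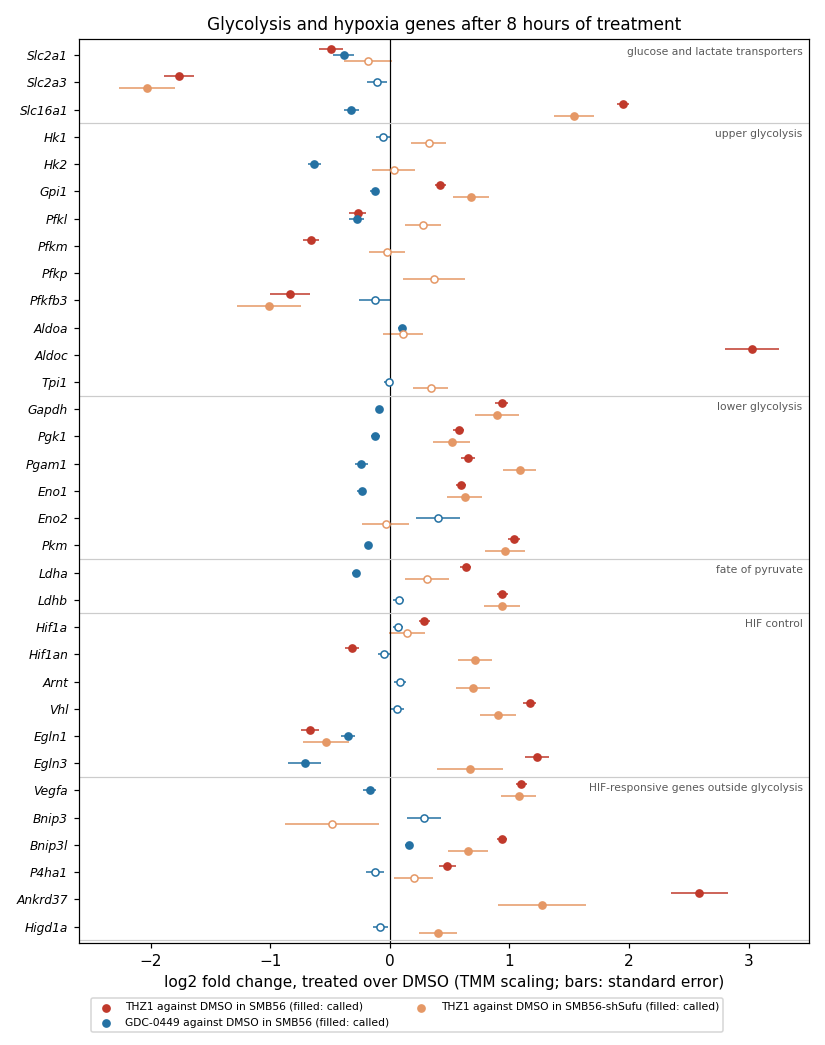
Log2 fold change of each gene, treated over DMSO, on the TMM scale (horizontal axis, bars are standard errors), for THZ1 in SMB56 (red), GDC-0449 in SMB56 (blue) and THZ1 in SMB56-shSufu (orange), with filled points called by edgeR and genes grouped by role. Except Eno2, the lower glycolytic enzymes lie right of 0 with THZ1 and left of 0 with GDC-0449. Both SMB56 comparisons share their DMSO libraries, and with mitochondrial scaling the lower glycolytic enzymes lie left of 0 with THZ1 too.

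**Figure D3:**
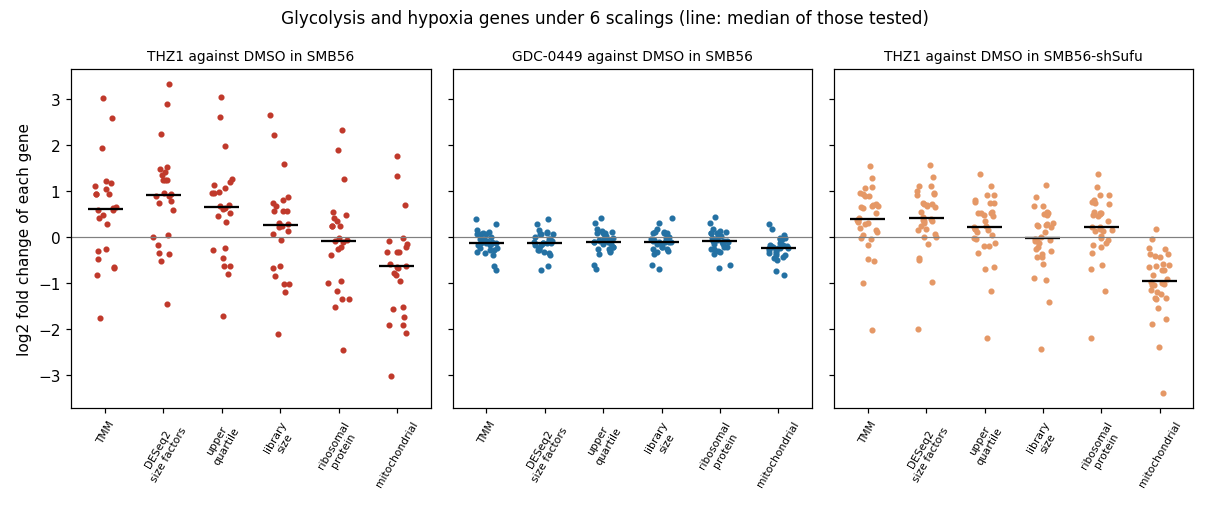
Log2 fold changes of the same genes (vertical axis, points) under 6 scalings of the counts, with their median as a black line, for the 3 treatment comparisons. With THZ1 the medians fall from TMM to mitochondrial scaling, from 0.62 to -0.64 in SMB56 and from 0.39 to -0.95 in SMB56-shSufu, while with GDC-0449 they stay between -0.24 and -0.10.

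The transporters parted. Slc16a1, which carries lactate and pyruvate with protons, stood at 56.3 and 53.4 CPM in SMB56 with DMSO and at 209.6 and 213 CPM with THZ1. Its log2 fold change was 1.95 ± 0.051. Both THZ1 libraries were above both DMSO libraries. In SMB56-shSufu it went from 71.0 and 51.3 CPM to 182 and 174 CPM, a log2 fold change of 1.54 ± 0.17 (edgeR adjusted p = 7.4e-06), and was not called with mitochondrial scaling (0.17). The groups did not overlap there either, although the DMSO libraries lay apart from each other.

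Slc2a3, the high-affinity glucose transporter of neurons, moved the other way. It stood at 24.5 and 25.0 CPM with DMSO and 6.98 and 7.64 CPM with THZ1 in SMB56, -1.76 ± 0.12 on the log2 scale. In SMB56-shSufu it stood at 22.4 and 15.8 and then at 5.12 and 4.18 CPM, -2.03 ± 0.23 (edgeR adjusted p = 1.1e-05). It was the lowest fold of the genes tested in either line, and the groups did not overlap. Slc2a1, the widely expressed glucose transporter, fell in SMB56 by less, -0.49 ± 0.10. It stood at 29.2 and 19.0 CPM with DMSO and 21.0 and 21.5 CPM with THZ1 in SMB56-shSufu, where the groups overlapped and no change was called (edgeR adjusted p = 0.44).

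In upper glycolysis the genes did not move together. Pfkfb3, whose product activates phosphofructokinase, stood at 13.7 and 10.8 CPM with DMSO and 7.27 and 6.37 CPM with THZ1 in SMB56, -0.83 ± 0.17 on the log2 scale. In SMB56-shSufu it went from 20.8 and 11.1 to 8.39 and 7.48 CPM, -1.01 ± 0.27 (edgeR adjusted p = 0.0051). Its groups did not overlap in either line, and it was lower under each of the 6 scalings. The phosphofructokinase subunit Pfkm was -0.66 ± 0.068 in SMB56 and lower under each scaling, and was -0.022 ± 0.15 in SMB56-shSufu, not called. Pfkl was -0.27 ± 0.072 in SMB56, where DESeq2 size factors put it at 0.039, and was not called in SMB56-shSufu at 0.28 ± 0.15. Gpi1, the glucose phosphate isomerase, was above the median gene in both, by 0.74 and 0.72, and its call of higher reversed to -0.83 and -0.66 with mitochondrial scaling.

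Other members of this group were tested in 1 line only. In SMB56-shSufu, Hk1, Hk2, Pfkp, Aldoa and Tpi1 were not called, at 0.32, 0.033, 0.37, 0.11 and 0.34. Hk2 stood at 68.6 and 46.2 CPM with DMSO and 58.2 and 59.2 CPM with THZ1, groups that overlapped on this scale, while on the authors' FPKM it went from 10.8 and 6.33 to 5.27 and 5.13 without overlap. In SMB56, Aldoc, the brain form of aldolase, went from 1.94 and 1.2 CPM to 11.6 and 14.2 CPM, 3.03 ± 0.22 on the log2 scale. Aldoc is not held in the GDC-0449 table, which has the same DMSO libraries, and a gene held in the selected THZ1 table through its high THZ1 group had to differ, so this fold is a description and no p-value is given.

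The lower glycolytic enzymes stood above the median gene in both lines. In SMB56 5 of 5 tested were called higher under TMM, against 44.3% of all genes in that outcome-selected table, and in SMB56-shSufu 5 of 6, against 29.5% of all. The genes so called all lay below DMSO under mitochondrial scaling. Gapdh, which makes NADH, stood at 1679 and 1668 CPM with DMSO and 3327 and 3077 CPM with THZ1 in SMB56, 0.94 ± 0.054, or 1.25 above the median gene. In SMB56-shSufu it stood at 1934 and 2144 and then at 3866 and 3716 CPM, 0.89 ± 0.18 (edgeR adjusted p = 9.1e-04), or 0.94 above the median gene. Both groups were apart in both lines.

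Pkm, the pyruvate kinase that ends the pathway, rose under TMM from 1319.6 and 1305 CPM to 2721 and 2662 CPM in SMB56 (1.04 ± 0.051), with -0.22 under mitochondrial scaling. It went from 971 and 921 to 1826 and 1858 CPM in SMB56-shSufu (0.96 ± 0.17, edgeR adjusted p = 2.9e-04), with -0.37 under mitochondrial scaling. Phosphoglycerate mutase Pgam1 lay 0.97 and 1.13 above the median gene in SMB56 and SMB56-shSufu, enolase Eno1 0.91 and 0.67, and phosphoglycerate kinase Pgk1 0.89 and 0.56. On the authors' FPKM Pgk1 was level in SMB56, at 71.6 and 69.5 with DMSO and 72.3 and 67.9 with THZ1. Its call in SMB56-shSufu was lost without SMB56-shSufu THZ1 replicate 1 (0.39, edgeR adjusted p = 0.14). The neuronal enolase Eno2 was not called, at -0.034 ± 0.20. Gapdh, Pgk1, Pgam1, Eno1, Pkm, Aldoa, Tpi1 and Ldha have processed pseudogenes that could take or lend reads, which was not tested.

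Of the enzymes that set the fate of pyruvate, Ldhb, the form associated with use of lactate, was 0.94 ± 0.047 in SMB56 and 0.94 ± 0.15 in SMB56-shSufu (edgeR adjusted p = 1.7e-04), and reversed to -0.32 and -0.37 with mitochondrial scaling. Ldha, the form associated with making lactate, stood at 344 and 332 CPM with DMSO and 518 and 531 CPM with THZ1 in SMB56, 0.63 ± 0.044, and reversed to -0.057 with ribosomal protein scaling. In SMB56-shSufu it stood at 323 and 228 CPM with DMSO and 366 and 317 CPM with THZ1, groups that overlapped, and was not called (0.31 ± 0.18, edgeR adjusted p = 0.15). Without SMB56-shSufu DMSO replicate 1, which was the high one, Ldha was called at 0.58.

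Among the regulators of HIF, Vhl, which recognises hydroxylated HIF alpha subunits, stood at 64.9 and 69.3 CPM with DMSO and 148 and 154 CPM with THZ1 in SMB56. It went from 34.5 and 29.2 to 61.0 and 58.1 CPM in SMB56-shSufu. The groups did not overlap in either line, and Vhl lay 1.48 and 0.95 above the median gene. Under TMM it was higher by 1.17 ± 0.054 in SMB56 and by 0.90 ± 0.15 in SMB56-shSufu (edgeR adjusted p = 2.2e-04 in SMB56-shSufu). With mitochondrial scaling it was -0.086 and -0.44.

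The 2 prolyl hydroxylases of the set moved apart. Egln1, the main oxygen sensor for HIF in most cells, stood at 70.1 and 73.1 CPM with DMSO and 41.7 and 48.7 CPM with THZ1 in SMB56, -0.67 ± 0.073. Egln3, which is itself induced by hypoxia, went from 13.3 and 12.0 to 29.2 and 30.2 CPM, 1.23 ± 0.10, with -0.032 under mitochondrial scaling. In both genes the THZ1 libraries were apart from the DMSO libraries. In SMB56-shSufu, Egln1 went from 56.0 and 37.3 to 34.5 and 29.9 CPM (-0.53 ± 0.19, edgeR adjusted p = 0.027) and Egln3 from 13.2 and 6.35 to 15.4 and 15.6 CPM (0.67 ± 0.28, edgeR adjusted p = 0.049). The 2 DMSO libraries lay far apart in both genes. Egln1 was -0.21 without SMB56-shSufu DMSO replicate 1 and Egln3 0.24 without replicate 2, neither called, and both calls were also lost without either THZ1 library. On the authors' FPKM, Egln3 stood at 3.90 and 1.70 with DMSO and 2.94 and 2.91 with THZ1 in SMB56-shSufu, groups that overlapped.

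Hif1a itself moved little on the TMM scale. It was 0.29 ± 0.048 in SMB56, where library size alone put it at -0.074, and 0.15 ± 0.15 in SMB56-shSufu, not called. It lay 0.60 above the median gene in SMB56 and 0.19 above it in SMB56-shSufu. Its partner Arnt was tested in SMB56-shSufu alone, where it was 0.70 ± 0.14 under TMM (edgeR adjusted p = 8.0e-04) and -0.62 with mitochondrial scaling. Hif1an, the asparagine hydroxylase that lowers HIF activity, was -0.31 ± 0.059 in SMB56, at the median gene (-0.0013), and 0.71 ± 0.14 in SMB56-shSufu, 0.76 above it.

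Of the HIF-responsive genes outside glycolysis, 4 of 4 in SMB56 and 4 of 6 in SMB56-shSufu were called higher under TMM, against 44.3% and 29.5% of all genes. Of these 8 calls, only that of Ankrd37 in SMB56 kept its sign with mitochondrial scaling. The SMB56 count comes from the table selected on this outcome, includes Ankrd37, whose limit is given below, and is a description. Vegfa, the angiogenic growth factor, stood at 80.1 and 78.6 CPM with DMSO and 171 and 169 CPM with THZ1 in SMB56, 1.41 above the median gene. In SMB56-shSufu it stood at 135 and 147 and then at 289 and 304 CPM, 1.12 above the median gene. Its TMM folds were 1.10 ± 0.049 in SMB56 and 1.08 ± 0.15 in SMB56-shSufu (edgeR adjusted p = 4.2e-05 in SMB56-shSufu). The groups were apart in both lines.

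Ankrd37, an ankyrin repeat gene known as a HIF target, went from 1.11 and 1.87 CPM to 9.08 and 9.02 CPM in SMB56 (2.59 ± 0.24). Like Aldoc it is held in the selected SMB56 THZ1 table and not in the GDC-0449 table with the same DMSO libraries, so this fold too is a description without a p-value. In SMB56-shSufu it went from 1.14 and 1.04 to 3.05 and 2.22 CPM (1.28 ± 0.37, edgeR adjusted p = 0.0088), a call that was lost without SMB56-shSufu THZ1 replicate 1 (1.04). These are low levels, and 20.1% of the exon bases of Ankrd37 overlap Lrp2bp on the opposite strand. The sources used here do not give whether strand was used in counting. Bnip3l, a receptor for removal of mitochondria, lay 1.25 and 0.70 above the median gene in SMB56 and SMB56-shSufu. Its relative Bnip3 was not called in SMB56-shSufu (-0.48 ± 0.39), at 2.04 and 2.2 CPM with DMSO and 1.05 and 1.99 CPM with THZ1.

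P4ha1, a collagen prolyl hydroxylase subunit, was 0.48 ± 0.071 in SMB56 and 0.20 ± 0.16 in SMB56-shSufu, where it was not called. Higd1a, a mitochondrial inner membrane protein, was 0.41 ± 0.16 in SMB56-shSufu (edgeR adjusted p = 0.039), which was lost without SMB56-shSufu THZ1 replicate 1 (0.25). Exon bases shared with an opposite-strand gene made up 27.2% of Bnip3 and 22.5% of Higd1a.

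Whether the 2 lines differed in their response to THZ1 was tested as a difference of the effects, SMB56-shSufu minus SMB56. Of 23 genes tested, 1 was called higher, 1 lower and 21 were not called, against 18.3% of all genes, 10.4% higher and 7.89% lower. Line, table, depth and sequencing cannot be told apart in any comparison of the lines. The SMB56 effect of every gene tested here, Hif1an included, comes from the table selected on the THZ1 outcome, so no difference is independent of that selection. Hif1an stood at 95.7 and 88.7 CPM with DMSO and 73.1 and 75.4 CPM with THZ1 in SMB56. In SMB56-shSufu it stood at 61.5 and 72.5 CPM with DMSO and 107 and 113 CPM with THZ1. These CPM come from the separate fit of each line and are not levels to compare between the lines. In the fit of the lines under DMSO, Hif1an averaged 84.3 CPM in SMB56-shSufu and 89.2 CPM in SMB56, and was not called. It was lower with THZ1 in SMB56 and higher in SMB56-shSufu under TMM, with no overlap in either line. The difference of effects was 0.90 ± 0.15 (edgeR adjusted p = 0.0055), between 0.77 and 1.00 when 1 library was left out, and called each time. With mitochondrial scaling it was 0.97 and not called. On the authors' FPKM, Hif1an was 11.6 and 10.5 with DMSO and 5.57 and 6.38 with THZ1 in SMB56, while the SMB56-shSufu libraries overlapped, at 10.7 and 11.2 for DMSO and 10.7 and 10.9 for THZ1.

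Ankrd37 was the gene called lower, with a difference of -1.45 ± 0.42 (edgeR adjusted p = 0.038). The SMB56 fold in this difference comes from the table selected on the THZ1 outcome, where a gene held through its high THZ1 group had to rise, so the difference is not independent of that selection. The call was lost when either SMB56 DMSO library, either SMB56 THZ1 library or SMB56-shSufu THZ1 replicate 2 was left out. The differences for the other genes were not called, and a p that misses the threshold does not show equal effects. Those nearest to the threshold were Pfkm at 0.51 ± 0.17 (edgeR adjusted p = 0.059) and Slc16a1 at -0.54 ± 0.18 (edgeR adjusted p = 0.067). With ribosomal protein scaling, whose median gene stood at 0.67, 8 of the 23 were called, all higher, against 53.7% of all genes called higher.

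**Figure D4:**
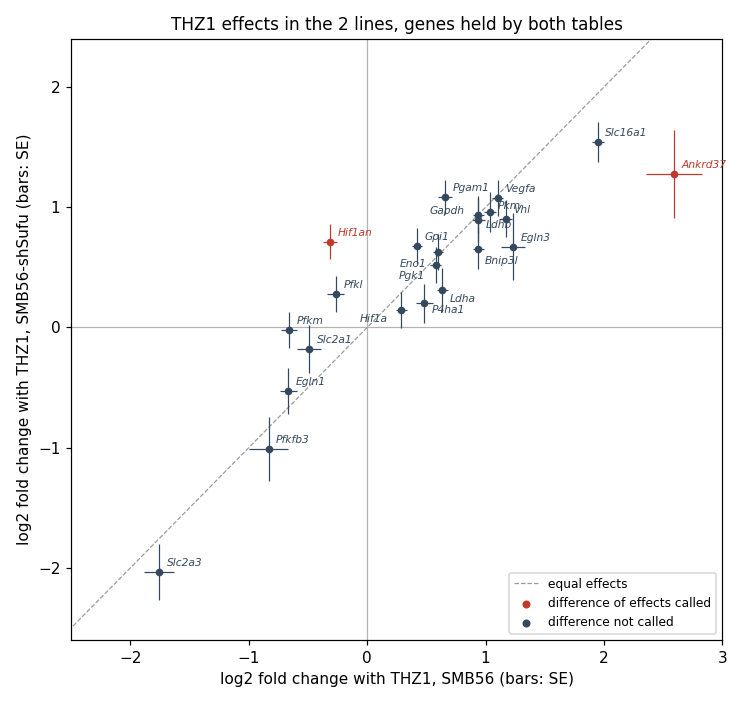
Log2 fold change with THZ1 in SMB56 (horizontal axis) and in SMB56-shSufu (vertical axis) on the TMM scale for the 23 genes in both tables, with standard errors as bars and equal effects as the dashed line. Hif1an and Ankrd37 (red) are the genes whose difference was called, and Slc2a3 is the lowest point on both axes.

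The effect of GDC-0449 was tested in SMB56 against the same DMSO libraries as THZ1, so these comparisons share their controls. Hk2, Egln3, Egln1, the transporters Slc2a1 and Slc16a1 and several lower glycolytic enzymes fell, mostly by little: 14 of 29 were called lower, 2 higher and 13 not called, against 36.3% of all genes called, 18.8% lower and 17.5% higher. The median log2 fold change was -0.12, against -0.01 over all genes. Only Hk2 and Egln3 reached 1.5-fold, against 2.02% of all genes. The calls rest on a spread of 2.27% between libraries. With all 10 libraries in 1 fit over the genes of all 3 tables, edgeR called 0 of the 21 genes tested, and 5 had an unadjusted p under 0.05, while that fit called 2.00% of all genes. Of the 29, limma on FPKM called 4, against 6.33% of all genes, and DESeq2's Wald test 12, against 16.6% of all. The authors' deposited table gives an adjusted p under 0.05 for 9 of the 29 genes and for 14.0% of its genes.

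Hk2, the hexokinase of rapidly growing cells, had the smallest p-value. It stood at 74.7 and 78.3 CPM with DMSO and 49.7 and 49.1 CPM with GDC-0449, -0.63 ± 0.057 on the log2 scale (edgeR adjusted p = 2.3e-10). The groups did not overlap, and the fold lay between -0.66 and -0.60 when 1 library was left out. Hk1, the constitutive form, stood at 46.5 and 50.9 CPM with DMSO and 46.0 and 48.0 CPM with GDC-0449, overlapping groups with a fold of -0.053 ± 0.065. Hk1 made up 41.6% and 46.1% of the FPKM of both genes with DMSO and 53.9% and 55.7% with GDC-0449.

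Egln3 stood at 13.3 and 12.1 CPM with DMSO and 7.40 and 8.09 CPM with GDC-0449, -0.71 ± 0.14 (edgeR adjusted p = 1.4e-04). Egln1 stood at 70.3 and 73.2 CPM with DMSO and 58.4 and 54.1 CPM with the inhibitor, -0.35 ± 0.057 (edgeR adjusted p = 1.4e-05). In both genes the groups did not overlap. Both were among the 20 of 29 genes lower under each of the 6 scalings, which differ little for GDC-0449. Hif1a, Hif1an, Arnt and Vhl were not called, at 0.066, -0.048, 0.089 and 0.061.

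At the transporters, Slc2a1 stood at 25.2 and 26.9 CPM with DMSO and 20.4 and 19.4 CPM with GDC-0449, -0.39 ± 0.087 (edgeR adjusted p = 7.9e-04). Slc16a1 stood at 56.4 and 53.5 CPM with DMSO and 44.4 and 43.5 CPM with the inhibitor, -0.32 ± 0.063 (edgeR adjusted p = 1.4e-04). Both fell with groups apart, and Slc2a3 was not called at -0.11 ± 0.084. Ldha fell by less in fold but with a narrow spread, from 345 and 332 CPM to 283 and 273 CPM (-0.28 ± 0.034, edgeR adjusted p = 8.4e-08), and Ldhb was not called at 0.075 ± 0.046.

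In the body of the pathway, Pfkl, Pgam1, Eno1, Pkm, Gpi1, Pgk1 and Gapdh were called lower, from -0.28 for Pfkl to -0.090 for Gapdh. Eno1 stood at 301 and 303 CPM with DMSO and 261 and 251 CPM with GDC-0449, groups apart (edgeR adjusted p = 1.8e-06). Aldoa, the main aldolase here, was called higher at 0.10 ± 0.032, which mitochondrial scaling put at -0.015. The calls of Gapdh, Aldoa, Pgk1, Gpi1 and Vegfa were each lost when 1 library was left out. For Gapdh this held for either SMB56 DMSO library and for GDC-0449 replicate 2, and for Aldoa for SMB56 DMSO replicate 1 and GDC-0449 replicate 1. For Pgk1 it held for SMB56 DMSO replicate 1 and GDC-0449 replicate 2, for Vegfa for SMB56 DMSO replicate 1 and GDC-0449 replicate 1, and for Gpi1 for GDC-0449 replicate 2. Tpi1, Pfkfb3 and Eno2 were not called, at -0.0082, -0.12 and 0.40.

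Of the HIF-responsive genes, Vegfa was called lower at -0.17 ± 0.052 and Bnip3l higher at 0.16 ± 0.034 (edgeR adjusted p = 0.011 and 4.8e-04). Bnip3l stood at 219 and 223 CPM with DMSO and 248 and 245 CPM with GDC-0449. Bnip3, P4ha1 and Higd1a were not called, at 0.29, -0.12 and -0.078. So the 5 genes of this group tested did not share a direction.

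THZ1 and GDC-0449 were also set against each other in SMB56, at the unequal doses of 0.1 and 1 µM. Of 21 genes in both tables, 16 were called higher with THZ1, 2 lower and 3 not called, against 89.9% of all genes, 39.4% higher and 50.5% lower. A called fold of at least 1.5 was reached by 15 of the 21 and by 66.6% of all genes. Slc16a1 was 2.53 ± 0.054 and Egln3 2.2 ± 0.12, both higher with THZ1 under each of the 6 scalings, as were Pkm and Vegfa. Slc2a3 was -1.39 ± 0.14 and Pfkfb3 -0.45 ± 0.16, both lower, and Pfkfb3 was not called without SMB56 THZ1 replicate 2 or GDC-0449 replicate 2. Slc2a1, Hif1an and Egln1 were not called. With mitochondrial scaling 2 were called higher and 12 lower (4.41% and 83.7% of all genes), and with ribosomal protein scaling 7 in each direction (14.1% higher and 72.1% lower of all genes). Genes of the SMB56 THZ1 table carry its selection into this comparison too.

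The untreated difference between the lines was read under DMSO. Of 29 genes, 6 were called higher in SMB56-shSufu, 4 lower and 19 not called, against 40.6% of all genes called, 20.8% higher and 19.8% lower. Vegfa and Eno2 stood higher in SMB56-shSufu and Bnip3, Vhl and Aldoa lower. With mitochondrial scaling 0 of the 29 were called higher and 26 lower (0.154% and 91.9% of all genes), and with library size alone 4 higher and 6 lower (15.7% and 25.2% of all). Vegfa stood at 77.6 and 76.0 CPM in SMB56 and 168 and 185 CPM in SMB56-shSufu, 1.2 ± 0.090 (edgeR adjusted p = 0.0016). Eno2, the neuronal enolase, stood at 5.04 and 4.33 CPM in SMB56 and 14.2 and 15.7 CPM in SMB56-shSufu, 1.67 ± 0.18 (edgeR adjusted p = 0.003). In both genes all SMB56-shSufu libraries were higher, and the fold held its call when any library was left out. Mitochondrial scaling, whose median gene stood at -1.33, put Vegfa at -0.15 and Eno2 at 0.31.

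Bnip3 was the largest fall, from 9.54 and 7.75 CPM to 2.55 and 2.79 CPM, -1.69 ± 0.22 (edgeR adjusted p = 0.0046). Vhl stood at 62.9 and 67.0 CPM in SMB56 and 43.1 and 36.9 CPM in SMB56-shSufu, -0.70 ± 0.11 (edgeR adjusted p = 0.0074). Aldoa stood at 385 and 389 CPM in SMB56 and 277 and 205 CPM in SMB56-shSufu, -0.68 ± 0.15 (edgeR adjusted p = 0.018). These 3 were lower with no overlap and whichever library was left out. They were among the 16 of 29 genes lower under each of the 6 scalings, as was Eno1. TMM gave the highest median gene of the 6, so a gene lower under TMM was nearly bound to stay lower, and this is no check.

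The other 5 calls were less firm. Gapdh was 0.66 ± 0.094, Gpi1 0.45 ± 0.084, P4ha1 0.51 ± 0.13 and Slc16a1 0.53 ± 0.16, all higher under TMM and all lower with mitochondrial scaling, and Eno1 was -0.40 ± 0.089. The call of Gapdh was lost without SMB56 DMSO replicate 2 and those of Gpi1, P4ha1, Slc16a1 and Eno1 without either SMB56 DMSO library. On the authors' FPKM, Gapdh was 901 and 903 in SMB56 and 951 and 967 in SMB56-shSufu, on tables that were processed separately. Slc2a1, Slc2a3, Hk1, Hk2, Pfkl, Pfkfb3, Tpi1, Pgk1, Pgam1, Pkm, Ldha, Ldhb, Hif1a, Hif1an, Arnt, Egln1, Egln3, Bnip3l and Higd1a were not called.

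The SMB56-shSufu DMSO libraries stood apart from each other on these genes. Replicate 1 was at least 0.4 log2 units above replicate 2 for 10 of 32 genes (31.3%), against 8.00% of the 11452 genes whose counts averaged 50 or more in that line, and replicate 2 was that far above for 1 (Bnip3l, -0.51), against 12.7%. The 10 were Egln3 at 1.02, Pfkfb3 at 0.88, Pfkp at 0.76, Slc2a1 at 0.60, Egln1 at 0.56, Hk2 at 0.55, Slc2a3 at 0.48, Ldha at 0.48, Slc16a1 at 0.45 and Aldoa at 0.43. The same gap was met by 0 genes in any SMB56 group and by 1 in each direction in SMB56-shSufu with THZ1, Ankrd37 and Bnip3. The mitochondrial share was lower in replicate 1, 5.83% against 8.18%, and its part in the gap was not tested. The line comparison called 22 of 29 genes (7 higher, 15 lower) without replicate 1, against 74.6% of all genes (37.7% higher, 36.9% lower). Without replicate 2 it called 25 (15 higher, 10 lower), against 76.8% of all genes (38.8% higher, 38.0% lower). Each of these fits takes its spread from the SMB56 pair and assumes that the lone library varies like it. Ldha, Egln3, Slc2a3 and Hk2 took opposite signs in the 2 fits.

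**Figure D5:**
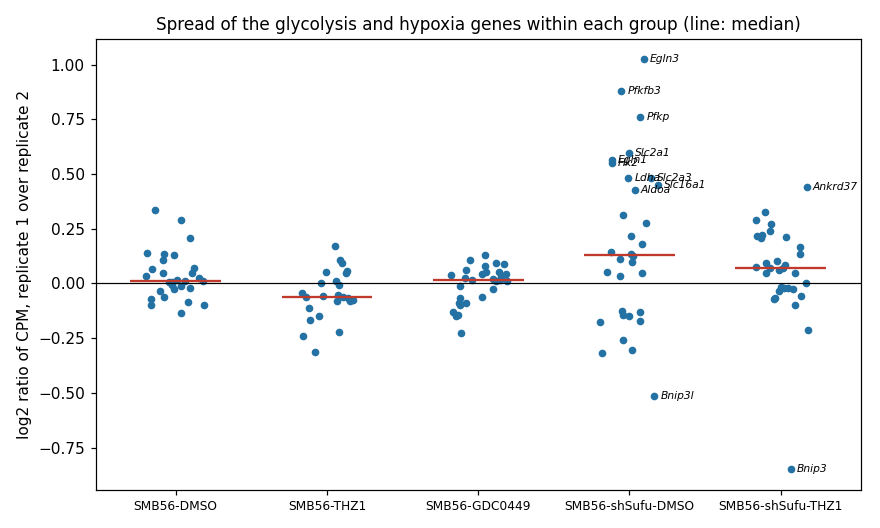
Log2 ratio of CPM of replicate 1 over replicate 2 (vertical axis) for each glycolysis and hypoxia gene (points) within each of the 5 groups, with the median as a red line. Genes with a gap of at least 0.4 are named, and 11 of the 13 names belong to SMB56-shSufu with DMSO.

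Paired forms of the same step were compared as shares of their summed FPKM. Egln1 made up 79.5% and 81.8% of Egln1 and Egln3 in SMB56 with DMSO and 49.0% and 51.2% with THZ1. The share in SMB56-shSufu was 82.2% and 86.5% with DMSO and 68.1% and 63.4% with THZ1. The THZ1 libraries lay below the DMSO libraries in both lines. With GDC-0449 the share was 85.9% and 84.1%, above both DMSO libraries. These shares do not depend on the scaling between libraries, and with 2 libraries a group they are given as values without a test.

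Slc2a1 made up 62.0% and 61.6% of Slc2a1 and Slc2a3 in SMB56-shSufu with DMSO and 81.3% and 80.0% with THZ1. In SMB56 the shares were 54.9% and 49.3% with DMSO and 58.3% and 71.7% with THZ1, so the THZ1 libraries were higher in both lines. Bnip3 made up 10.4% and 7.96% of Bnip3 and Bnip3l in SMB56 and 5.55% and 3.75% in SMB56-shSufu with DMSO, and 2.81% and 2.63% in SMB56-shSufu with THZ1. Eno2 was the minor enolase in the 4 groups where it was analysed, with Eno1 at 98.9% and 98.8% in SMB56 and 95.2% and 94.5% in SMB56-shSufu with DMSO. The share of Ldha among both lactate dehydrogenases was 71.4% and 72.2% in SMB56 with DMSO. THZ1 libraries of SMB56 were at 69.0% and 71.0% and GDC-0449 libraries at 65.1% and 69.8%. In SMB56-shSufu, DMSO libraries were at 82.1% and 73.0% and THZ1 libraries at 71.0% and 71.8%. In SMB56 the DMSO shares were above the others, and those of THZ1 and GDC-0449 overlapped.

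Other genes of the pathway, from 6 lists, gave a wider view. In all 6 lists, counts are to be read against the shares of all genes: 44.3% called higher and 55.2% lower with THZ1 in SMB56, 29.5% and 32.3% with THZ1 in SMB56-shSufu, and 17.5% and 18.8% with GDC-0449. The SMB56 THZ1 counts come from the table selected on that outcome and are a description. Of other isozymes and regulators of glycolysis, 5 of 11 were higher and 6 lower with THZ1 in SMB56, 3 of 11 higher and 6 lower in SMB56-shSufu, and 2 of 7 higher and 0 lower with GDC-0449. The SMB56 THZ1 counts here are near the split of all genes in that table. The median folds in the same order were -1.26, -0.75 and 0.10. With THZ1 in SMB56 the largest fall was Slc16a7 (-2.12 ± 0.42), another lactate transporter. In SMB56-shSufu the largest rise and fall were Eno3 (1.00 ± 0.17), the muscle enolase, and Pfkfb1 (-2.80 ± 0.42), a relative of Pfkfb3. Both falls were at low levels: Slc16a7 averaged 2.22 CPM with DMSO and 0.499 with THZ1 in SMB56, and Pfkfb1 3.59 and 0.512 in SMB56-shSufu. With GDC-0449 the transporter Slc2a6 rose by 0.26 ± 0.091. Folds with THZ1 in these lists are on the TMM scale and share the shifts of the median gene given above.

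The mitochondrial entry of pyruvate gave 5 of 9 higher and 4 lower with THZ1 in SMB56, 4 of 13 higher and 1 lower in SMB56-shSufu, and 2 of 12 higher and 2 lower with GDC-0449, where the shares of all genes are those given above. Pdhx, a structural part of pyruvate dehydrogenase, rose by 1.46 ± 0.061, and Mpc2, a subunit of the pyruvate carrier, was -0.40 ± 0.070 with THZ1 in SMB56. In SMB56-shSufu, Pdp2, which activates pyruvate dehydrogenase, rose by 1.69 ± 0.16, and its subunit Dld was -0.80 ± 0.15. With GDC-0449, Pcx, pyruvate carboxylase, was the largest fall at -0.75 ± 0.088 (edgeR adjusted p = 5.4e-08), past the fold of every glycolysis gene above, and the kinase Pdk2 the largest rise at 0.34 ± 0.092.

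The pentose phosphate branch gave 2 of 4 higher and 2 lower, 3 of 7 higher and 1 lower, and 0 of 7 higher and 3 lower in the same order of comparisons, to be set beside the same shares of all genes. Rpia, ribose phosphate isomerase, rose by 1.09 ± 0.068 and 1.17 ± 0.18 with THZ1 in SMB56 and SMB56-shSufu and was -0.34 ± 0.071 with GDC-0449. Transketolase Tkt was -0.50 ± 0.044 in SMB56 and G6pdx, which opens the branch, -0.40 ± 0.14 in SMB56-shSufu.

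The citrate cycle gave 3 of 12 higher and 8 lower, 5 of 16 higher and 3 lower, and 0 of 15 higher and 5 lower, in that order and beside those shares. Sdhd, a subunit of succinate dehydrogenase, was 0.87 ± 0.057 and Ogdh, oxoglutarate dehydrogenase, -1.91 ± 0.084 with THZ1 in SMB56. Fumarase Fh1 was -1.35 ± 0.15 in SMB56-shSufu, and Idh3a, an isocitrate dehydrogenase subunit, -0.19 ± 0.043 with GDC-0449. Under DMSO, 8 of 15 were higher in SMB56-shSufu than in SMB56 and 0 lower under TMM, against 20.8% and 19.8% of all genes, with Idh3g at 1.00 ± 0.080. Mitochondrial scaling, not applied to this list, called 91.9% of all genes lower.

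Other HIF control genes gave 5 of 11 higher and 6 lower, 5 of 12 higher and 3 lower, and 2 of 11 higher and 2 lower, with the SMB56 THZ1 counts again near the split of all genes. In both lines the largest rise with THZ1 was Siah2, a ubiquitin ligase for prolyl hydroxylases (1.26 ± 0.100 in SMB56 and 0.98 ± 0.18 in SMB56-shSufu), and the largest fall was Egln2, a prolyl hydroxylase (-1.29 ± 0.089 and -1.17 ± 0.17). With GDC-0449, Siah2 was the largest fall at -0.42 ± 0.13 and Siah1a the largest rise at 0.22 ± 0.076.

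Other HIF-responsive genes gave 13 of 18 higher and 5 lower, 8 of 20 higher and 7 lower, and 6 of 18 higher and 4 lower. For THZ1 the shares of all genes were 44.3% higher in SMB56 and 29.5% in SMB56-shSufu, and for GDC-0449 17.5%. Adm, the peptide adrenomedullin, stood at a mean of 0.134 CPM, very few reads, with DMSO and 2.70 CPM with THZ1 in SMB56, and was held in that selected table through its THZ1 libraries. Pgm2, a phosphoglucomutase, was -2.03 ± 0.13. In SMB56-shSufu, the nuclear receptor Rora rose by 2.11 ± 0.24 and glycogen synthase Gys1 was -2.16 ± 0.17. With GDC-0449, Ddit4, an inhibitor of mTOR signalling, rose by 0.42 ± 0.036 (edgeR adjusted p = 9.4e-11), and the transcription factor Bhlhe40 fell at -0.66 ± 0.21. Under DMSO, the same 2 genes stood at the ends of the list between the lines, Bhlhe40 at 1.59 ± 0.25 and Ddit4 at -1.93 ± 0.094 in SMB56-shSufu over SMB56.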

How the data were processed

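RNA-seq libraries of SMB56 and SMB56-shSufu mouse cells were used as 3 deposited tables. Per the file headers, the authors deposited raw read counts per gene and FPKM for each library. The counts of SMB56-shSufu, whose headers do not name the unit, are whole numbers with unequal totals. The authors' own log2 fold changes and adjusted p-values stand beside them in the deposited tables, and only the p-values were used here, to describe each table's selection. Per the submitters' processing notes, the tools were Cufflinks 2.2.1, DESeq2 1.20.0 and STAR 2.5.3a and the build hg19, with no step given. Because the gene identifiers are mouse Ensembl IDs, no coordinates were taken from the files, and promoters come from RefSeq (GRCm38.p6). The SMB56 DMSO libraries stand in 2 tables, and 0 of their counts differed between these.

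Each comparison was fitted on the counts of its own groups and every gene shared by their tables (7417 to 12057 genes) with edgeR 4.0.16 in R 4.3.3: TMM, filterByExpr, 1 coefficient per group, quasi-likelihood F test, and Benjamini-Hochberg adjustment over all genes tested at 0.05. A fit over all 10 libraries, which keeps only the 7244 genes of all 3 tables, was an alternative. CPM are TMM-normalized within each fit over its own genes, so a library can have other CPM in another comparison. Vegfa in SMB56-shSufu with DMSO, for example, averaged 140.6 CPM in the THZ1 fit and 176.8 CPM in the line fit. CPM of different fits are not to be compared. The marker sums and the gaps between replicates use the library total without TMM. Folds are log2 ± standard error, and 2 libraries per group limit precision. The range of summed counts over the deposited genes is given with the results. The named genes are all 37, with the largest called rise and fall of each other list, of which some are not reported here. The members and lists were chosen with earlier results of these data known. Alternatives were other scalings, DESeq2 1.42.0, limma 3.58.1 on log2(FPKM + 1), no filter, 1 library left out and the replicate number as a block. Genes sharing exon bases were found in GENCODE vM21.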

Additional observations from a re-analysis of the deposited data

Results flagged for a closer look

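For Hif1an and Ankrd37 the test of the difference between the THZ1 effects in the 2 lines passed its threshold. For Hif1an the difference of the log2 effects, SMB56-shSufu minus SMB56, was 0.90 (edgeR adjusted p = 0.0055), with alternatives from 0.77 with limma on FPKM to 1.54 with ribosomal protein scaling and adjusted p from 2.2e-04 to 0.11. For Ankrd37 it was -1.45 (edgeR adjusted p = 0.038), with alternatives from -1.91 to -0.83 and adjusted p from 0.0079 to 0.17, and its level under DMSO was 1.04 to 1.87 CPM. The SMB56 effects of both genes come from a table selected on the THZ1 outcome, so neither difference is independent of that selection. Line, table, depth and sequencing cannot be told apart in either.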

How the results depend on the processing

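The 2 libraries per group limit every result, and line cannot be told apart from table and depth. Of 29 genes with GDC-0449, 16 were called, 4 with limma on FPKM and, with edgeR, 0 of 21 in the fit of all 10 libraries, which also covers fewer genes (5 of 21 at an unadjusted p under 0.05). Of 32 genes with THZ1 in SMB56-shSufu, 19 were called, 12 with library size alone and 10 with limma on FPKM. For the lines under DMSO 10 were called, 26 with mitochondrial scaling and 6 with limma on FPKM. For the difference of effects 2 were called, 4 with DESeq2 size factors, 0 with mitochondrial scaling (2 at an unadjusted p under 0.05), 8 with ribosomal protein scaling and 5 with DESeq2's Wald test. Leaving out 1 library gave 24 called each time for THZ1 in SMB56, 12 to 15 for GDC-0449, 14 to 24 for THZ1 in SMB56-shSufu, 5 to 25 between the lines, 1 to 11 for the difference and 17 to 18 for THZ1 against GDC-0449. A fit that leaves 1 library in a group assumes that it varies like the others.

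Same-numbered libraries deviated together only weakly (correlations of 0.0068 to 0.15 over genes), so the numbers were not taken as pairs. With the replicate number as a block, 24, 16, 22, 12, 4 and 18 genes were called for THZ1 in SMB56, GDC-0449, THZ1 in SMB56-shSufu, the lines, the difference and THZ1 against GDC-0449.

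On CPM, which does not divide by length, the share of Slc2a1 was 55.7% and 82.1% in SMB56-shSufu with DMSO and THZ1. That of Hk1 was 38.9%, 48.7% and 46.6% in SMB56 with DMSO and GDC-0449 and in SMB56-shSufu with THZ1. That of Eno1 was 98.4% and 93.6% in SMB56 and SMB56-shSufu with DMSO. That of Ldha was 76.4%, 72.4% and 71.6% in SMB56 with DMSO, THZ1 and GDC-0449 and 70.1% in SMB56-shSufu with THZ1. That of Egln1 was 85.0%, 60.3% and 87.9% in the same 3 SMB56 groups. That of Bnip3 was 3.90%, 4.24%, 1.67% and 0.758% in SMB56 with DMSO and GDC-0449 and SMB56-shSufu with DMSO and THZ1.

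With mitochondrial scaling, folds called in either setting changed sign in THZ1 in SMB56 to -0.83 for Gpi1, -0.33 for Gapdh, -0.69 for Pgk1, -0.60 for Pgam1, -0.66 for Eno1, -0.22 for Pkm, -0.62 for Ldha, -0.32 for Ldhb, -0.97 for Hif1a, -0.086 for Vhl, -0.032 for Egln3, -0.16 for Vegfa, -0.32 for Bnip3l and -0.78 for P4ha1. Likewise in THZ1 in SMB56-shSufu to -1.02 for Hk1, -1.34 for Hk2, -0.66 for Gpi1, -1.05 for Pfkl, -1.01 for Pfkp, -1.25 for Aldoa, -0.98 for Tpi1, -0.42 for Gapdh, -0.82 for Pgk1, -0.25 for Pgam1, -0.72 for Eno1, -0.37 for Pkm, -1.06 for Ldha, -0.37 for Ldhb, -1.21 for Hif1a, -0.60 for Hif1an, -0.62 for Arnt, -0.44 for Vhl, -0.73 for Egln3, -0.24 for Vegfa, -0.63 for Bnip3l, -1.15 for P4ha1, -0.044 for Ankrd37 and -0.93 for Higd1a (mitochondrial scaling). Likewise in GDC-0449 to -0.015 for Aldoa (mitochondrial scaling). Likewise in the line comparison to -1.03 for Slc2a1, -0.78 for Slc16a1, -1.2 for Hk1, -0.89 for Gpi1, -1.2 for Tpi1, -0.70 for Gapdh, -1.22 for Ldha, -1.2 for Hif1a, -1.27 for Egln3, -0.15 for Vegfa and -0.81 for P4ha1 (mitochondrial scaling). Likewise in THZ1 against GDC-0449 to -1.25 for Slc2a1, -0.59 for Gpi1, -1.14 for Pfkl, -0.12 for Gapdh, -0.45 for Pgk1, -0.25 for Pgam1, -0.31 for Eno1, -0.22 for Ldha, -0.28 for Ldhb, -0.92 for Hif1a, -0.031 for Vhl, -0.37 for Bnip3l and -0.54 for P4ha1 (mitochondrial scaling). With ribosomal protein scaling, folds called in either setting changed sign in THZ1 in SMB56 to -0.27 for Gpi1, -0.12 for Pgk1, -0.033 for Pgam1, -0.098 for Eno1, -0.057 for Ldha, -0.40 for Hif1a and -0.21 for P4ha1. Likewise in the difference of THZ1 effects to 0.47 for Gapdh and 0.54 for Eno1 (ribosomal protein scaling). Likewise in THZ1 against GDC-0449 to -0.82 for Slc2a1, -0.16 for Gpi1, -0.70 for Pfkl, -0.014 for Pgk1, -0.49 for Hif1a and -0.11 for P4ha1 (ribosomal protein scaling). With limma on FPKM, folds called in either setting changed sign in THZ1 in SMB56 to -0.21 for Gpi1, -0.011 for Pgk1, -0.28 for Hif1a and -0.055 for P4ha1. Likewise in THZ1 in SMB56-shSufu to -0.19 for Pgk1, -0.055 for Eno1, -0.021 for Hif1an, -0.12 for Bnip3l and -0.38 for Higd1a (limma on FPKM). Likewise in THZ1 against GDC-0449 to -0.62 for Slc2a1, -0.032 for Gpi1, -0.45 for Pfkl and -0.33 for Hif1a (limma on FPKM). With library size alone, folds called in either setting changed sign in THZ1 in SMB56 to -0.074 for Hif1a. Likewise in THZ1 in SMB56-shSufu to -0.0033 for Higd1a (library size alone). Likewise in THZ1 against GDC-0449 to -0.48 for Slc2a1, -0.36 for Pfkl and -0.15 for Hif1a (library size alone). With DESeq2 size factors, folds called in either setting changed sign in THZ1 in SMB56 to 0.039 for Pfkl. Likewise in THZ1 against GDC-0449 to 0.16 for Hif1an (DESeq2 size factors). With DESeq2's Wald test, folds called in either setting changed sign in THZ1 in SMB56 to 0.032 for Pfkl. With upper-quartile factors, folds called in either setting changed sign in THZ1 against GDC-0449 to -0.077 for Pfkl. Between the lines, the fits without SMB56-shSufu DMSO replicate 1 and without replicate 2 gave -0.19 and 0.31 for Ldha, -0.61 and 0.43 for Egln3, -0.27 and 0.22 for Slc2a3, -0.35 and 0.22 for Hk2. Relative to the median gene, the folds moved by less than 0.1 over the scalings of the counts. This is built in, since a scaling shifts all folds of a fit by nearly the same amount, and it is no check on processing. Folds called in neither setting were not counted as reversed, whatever their sign.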
